A study of Mus musculus with 22 samples.

Results

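The colony-stimulating factors and their receptors were followed in CD11c+CD8α- dendritic cells (CD8α- DCs) of the mouse pancreas. The members are 3 ligand genes (Csf1, Csf2 and Csf3) and 5 receptor genes (Csf1r, Csf2ra, Csf2rb, Csf2rb2 and Csf3r), that is, 8 of the 18193 genes on the array. They were taken by gene symbol, with every probe set annotated to 1 of them alone, which gave 15 of 45037 probe sets. No measured value entered the choice of probe sets, but the members were chosen with earlier results of these data known. Csf1 has 4 probe sets, Csf1r has 3, Csf2ra and Csf2rb have 2 each, and Csf2, Csf3, Csf2rb2 and Csf3r have 1 each. Csf2rb and its neighbour Csf2rb2 are close copies, and 1 further probe set annotated to both was left out, so that the split of signal between these genes is uncertain. Probe sets whose name ends in s_at or x_at may also take up related transcripts.

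CD45+ pancreatic cells of female mice aged 5 weeks were sorted for CD11c without CD8α, each sample being a pool of 10 pancreases. Pools came from NOD mice (NOD/ShiLtJ), which spontaneously develop autoimmune diabetes, and from C57BL/6 mice (C57BL/6J), which served as controls. Cells were lysed directly after sorting (steady state) or were cultured for 18 h with lipopolysaccharide (LPS), a bacterial wall component sensed through TLR4, or with PBS. RNA was amplified and hybridised to Affymetrix Mouse Genome 430 2.0 arrays, 1 per sample. There were 4 NOD and 3 C57BL/6 arrays of LPS culture, 4 NOD and 4 C57BL/6 arrays of PBS culture, and 3 NOD and 4 C57BL/6 arrays of the steady state. The strains differ across the genome, and PBS culture differs from the steady state in both time and handling. A probe set was called where its Benjamini-Hochberg adjusted p from limma, over all 45037 probe sets, was under 0.1.

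In mice and in humans, M-CSF (Csf1) acts through the tyrosine kinase encoded by Csf1r and sustains monocytes and macrophages. GM-CSF (Csf2) binds an α chain (Csf2ra) that signals with a β chain (Csf2rb), which in the mouse also serves the receptors of IL-3 and IL-5. Csf2rb2 encodes a second mouse β chain, used with IL-3. G-CSF (Csf3) signals through the homodimeric receptor encoded by Csf3r and is best known for driving neutrophil production. Transcripts of Csf2 and Csf3 are typically short-lived and are induced by Toll-like receptor signals, and GM-CSF supports the survival and maturation of DCs.

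The deposited values are log2 expression, with array medians between 7.63 and 7.68 and lower quartiles between 6.03 and 6.36. Replicates of a group correlated at r = 0.984 to 0.997 across probe sets. Of the DC markers, H2-Ab1 and Cd74, which belong to MHC class II, averaged at least 12.9 and 14.1 in every group. Itgax, which encodes CD11c, averaged 10.9 in NOD and 11.3 in C57BL/6 cells at steady state and 8.34 to 9.03 in the 4 cultured groups. Flt3 averaged 9.02 to 9.90 and Zbtb46 9.60 to 10.3. Cd209a averaged 11.2 in NOD and 11.5 in C57BL/6 at steady state and 6.66 to 6.95 in culture. Ccr7 went the other way, with 8.87 in NOD and 9.36 in C57BL/6 at steady state and 13.1 to 13.7 in culture. After PBS culture 1 of the 8 DC markers was called higher and 4 lower in NOD, and 3 higher and 4 lower in C57BL/6. There 67.1% and 72.7% of all probe sets were called. Between strains 4 of the 8 were called lower in NOD at steady state, 3 with PBS and 4 with LPS. Only 1 was called higher, with PBS. Of all probe sets 7.94%, 5.09% and 4.88% were called lower in these comparisons, and 7.09%, 4.78% and 5.03% higher. The macrophage genes C1qb and Adgre1 were high as well, with group means of at least 13.6 and 11.8. Basophil and mast cell markers lay near the lower quartile, with mean levels over 5 genes between 5.27 and 6.23. Of these, Cpa3 averaged 5.44 in NOD and 6.77 in C57BL/6 at steady state. Mean levels were higher for 7 NK, ILC and T cell markers (8.71 to 9.77) and for 3 B cell markers (8.17 to 10.9). Of the 7, 1 was called higher and 3 lower in NOD at steady state, and 2 lower with PBS and 2 with LPS. Of the 3 B cell markers none was called at steady state, and 2 were lower in NOD with PBS and 1 with LPS. The shares of all probe sets are those given for the DC markers. In a sorted bulk sample, fewer cells of a type and less RNA per cell cannot be told apart.

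The windows from 250 bases before to 50 bases after the annotated start are shown for Csf1, Csf2 and Csf3r, 2 ligands and a receptor that changed with culture, with LPS or with both. They are from RefSeq (GRCm38.p6), where windows of 5 of the 8 members were searched. Csf3, Csf1r and Csf2rb were not searched. The windows are given 5′ to 3′ on the gene's strand, with matches to the NF-kB consensus and to the PU.1 core GAGGAA in capitals. The Csf1 window is chr3:107760420-107760719 on the minus strand, the Csf2 window is chr11:54249850-54250149 on the minus strand, and the Csf3r window is chr4:126024409-126024708 on the plus strand.
Csf1: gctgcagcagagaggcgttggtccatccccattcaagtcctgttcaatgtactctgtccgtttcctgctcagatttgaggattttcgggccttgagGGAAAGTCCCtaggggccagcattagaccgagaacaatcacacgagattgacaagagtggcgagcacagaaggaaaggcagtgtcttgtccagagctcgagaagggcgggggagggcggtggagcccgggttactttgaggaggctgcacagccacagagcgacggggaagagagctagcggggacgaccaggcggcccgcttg
Csf2: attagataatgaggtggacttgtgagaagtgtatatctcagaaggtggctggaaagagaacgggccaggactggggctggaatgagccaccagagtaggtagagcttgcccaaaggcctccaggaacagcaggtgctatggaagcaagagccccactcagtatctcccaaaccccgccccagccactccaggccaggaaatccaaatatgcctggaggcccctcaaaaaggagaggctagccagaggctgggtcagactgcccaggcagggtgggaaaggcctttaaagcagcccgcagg
Csf3r: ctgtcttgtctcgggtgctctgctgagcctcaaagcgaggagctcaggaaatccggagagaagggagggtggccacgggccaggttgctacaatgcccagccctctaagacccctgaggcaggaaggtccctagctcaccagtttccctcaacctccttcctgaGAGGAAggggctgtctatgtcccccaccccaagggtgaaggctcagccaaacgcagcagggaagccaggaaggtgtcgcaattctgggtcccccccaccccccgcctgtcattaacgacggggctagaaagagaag

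The capitals in Csf1 mark 1 NF-kB match, read on the opposite strand, which begins at position -154 from the start. Such a match was found in 4.51% of 32851 windows of the same length. The capitals in Csf3r mark 1 PU.1 core, beginning at position -86, a hexamer that 28.3% of the windows held on either strand. The window of Csf2ra, not shown, held 2 adjacent PU.1 cores ending just before the start. That of Csf2rb2 held 2 on the opposite strand and a STAT motif (TTCNNNGAA), found in 8.3% of windows. Searches of both strands for AP-1 (TGANTCA, 7.81% of windows) and the TATA hexamer TATAAA (13.6%) found no match in these 5 windows, and Csf2 matched none of the 5 motifs. A match is a match of letters only, and no match says nothing of sequence outside the window.

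Culture moved nearly the whole family, whereas LPS moved mainly the ligands Csf2 and Csf3. In NOD cells 11 of the 15 probe sets were called higher and 4 lower after PBS culture than at steady state, where 67.1% of all probe sets were called (37.8% higher and 29.3% lower). In C57BL/6 cells 10 were called higher and 4 lower, where 72.7% of all probe sets were called (42.1% higher and 30.5% lower), so that a call by itself said little about a member here. With LPS, 3 of 15 were called higher (Csf2, Csf3 and Csf3r) and 2 lower (both Csf1r) in NOD cells, where 3.76% of all probe sets were called (1.68% higher and 2.08% lower). In C57BL/6 cells Csf3 alone was called higher and none lower, where 1.48% of all probe sets were called (0.715% higher and 0.762% lower). The median log2 LPS difference over the 15 probe sets was -0.16 in NOD and -0.14 in C57BL/6, beside 0.00 and 0.02 over all probe sets (rounded to 2 decimals). Groups did not overlap for 8.1% of all probe sets with LPS in NOD and for 10.8% in C57BL/6. Between strains these shares were 23% at steady state, 12.9% with PBS and 17.6% with LPS. For PBS culture against steady state they were 60.6% in NOD and 59.5% in C57BL/6.

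**Figure D1:**
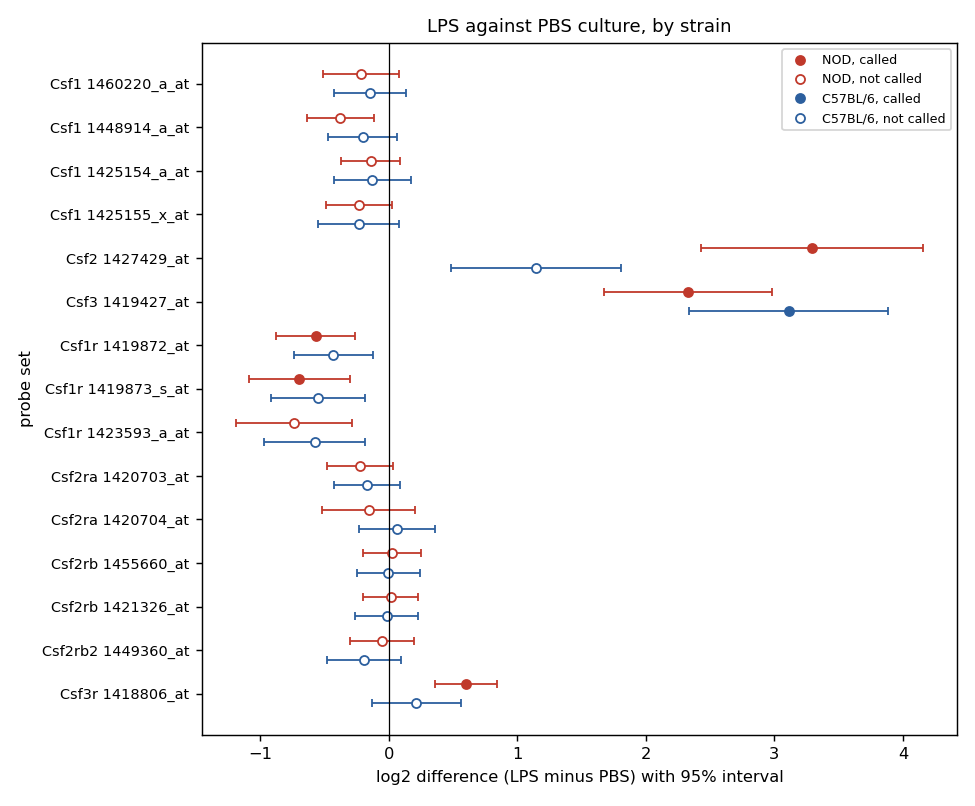
Log2 difference between LPS and PBS culture (x axis) for each of the 15 probe sets (y axis), NOD in red above C57BL/6 in blue. Bars are 95% intervals from limma, and filled points were called. Csf2 and Csf3 lie far to the right, Csf2 with 3.29 in NOD and 1.15 in C57BL/6, and the 3 Csf1r probe sets lie left of 0 in both strains.

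Csf2 (probe set 1427429_at), the gene of GM-CSF, was highest in LPS-stimulated NOD cells. Its log2 level was 11.60, 11.78, 12.71 and 12.06 in the 4 NOD LPS arrays and 10.03, 9.37 and 9.65 in the 3 C57BL/6 LPS arrays. With PBS it was 8.21, 8.69, 10.08 and 7.99 in NOD and 8.73, 8.77, 7.66 and 8.97 in C57BL/6. At steady state it was 6.16, 6.06 and 6.45 in NOD and 6.78, 6.25, 6.51 and 6.46 in C57BL/6, close to the lower quartile of the arrays. All NOD LPS arrays lay above all others, the C57BL/6 LPS arrays lay above the C57BL/6 PBS arrays, and 1 NOD PBS array (replicate 3) stood as high as the top C57BL/6 LPS array.

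In NOD cells Csf2 was 9.79-fold higher with LPS than with PBS (log2 difference 3.29, SE 0.39, adjusted p = 0.00223 by limma). It ranked 3 among the probe sets that were higher in this comparison. In C57BL/6 cells it was 2.21-fold higher (log2 difference 1.15, SE 0.30, 95% interval 0.49 to 1.81) and was not called (adjusted p = 0.147). The groups did not overlap, which held for 10.8% of all probe sets. With the pools paired by replicate number the C57BL/6 difference was 1.21 and was called (adjusted p = 0.0749). Pool by pool, LPS exceeded PBS by 3.39, 3.09, 2.63 and 4.07 for the 4 NOD pairs and by 1.26, 1.71 and 0.674 for the 3 C57BL/6 pairs, so that LPS was higher in all 7.

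The study had listed Csf2 as a NOD-specific LPS-inducible gene from these same arrays, so the values here are not independent of that choice. It also reported Csf2 as significant by q-PCR. The response to LPS was 2.14 larger in NOD on the log2 scale (SE 0.57, 95% interval 0.94 to 3.34, unadjusted p = 0.0016), but this interaction was not called over all probe sets (adjusted p = 0.818 by limma). An interaction of strain and LPS was called for 11 probe sets, or 0.0244% (0.0178% larger and 0.00666% smaller in NOD), and none was a member. Leaving out NOD PBS replicate 3 gave 2.59 (adjusted p = 0.0819). Between the strains in LPS culture Csf2 was 5.12-fold higher in NOD (log2 difference 2.36, SE 0.25, adjusted p = 0.00045), with no overlap. In PBS culture the strain difference was 0.21 (95% interval -0.70 to 1.12) and was not called.

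PBS culture alone raised Csf2 in both strains relative to steady state, 5.75-fold in NOD (log2 difference 2.52, SE 0.39, adjusted p = 0.00017) and 4.09-fold in C57BL/6 (2.03, SE 0.24, adjusted p = 1.75e-05). Il3, which lies beside Csf2 on chromosome 11 and encodes another β chain ligand, averaged between 5.50 and 6.06 in the 6 groups and was called in none of the 9 comparisons, interactions included.

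Csf3 (1419427_at), the gene of G-CSF, was induced by culture and by LPS in both strains. It measured 12.91, 12.68, 13.19 and 13.00 in NOD LPS arrays and 11.57, 10.53 and 11.57 in C57BL/6 LPS arrays. With PBS it measured 10.26, 10.52, 11.69 and 9.99 in NOD and 8.20, 8.93, 7.63 and 7.68 in C57BL/6. At steady state all 7 arrays lay below their lower quartile, with 4.70, 5.72 and 5.26 in NOD and 4.95, 5.42, 4.35 and 4.71 in C57BL/6. LPS lay above PBS in each strain and NOD above C57BL/6 in each kind of culture, without overlap.

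LPS raised Csf3 5.02-fold in NOD cells (log2 difference 2.33, SE 0.30, adjusted p = 0.00275) and 8.65-fold in C57BL/6 cells (3.11, SE 0.35, adjusted p = 0.0175), where it ranked 3 among the higher probe sets. The strain difference of these responses was -0.79 (95% interval -1.86 to 0.28, adjusted p = 1) and was not called. Between strains, NOD cells held 5.69-fold more with PBS (log2 difference 2.51, SE 0.36, adjusted p = 0.0015) and 3.3-fold more with LPS (1.72, SE 0.24, adjusted p = 0.0023). At steady state the difference was 0.37 (95% interval -0.21 to 0.96), with all arrays of both strains below their lower quartile.

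Csf3 was higher after PBS culture than at steady state in both strains, but its steady state level is known only to lie below the lower quartile of every array. With each steady state array set to its lower quartile, a bound chosen after the values were seen, the rise was at least 22.4-fold in NOD and at least 4.11-fold in C57BL/6. The fitted log2 differences, 5.39 in NOD (SE 0.35, adjusted p = 1.52e-07) and 3.25 in C57BL/6 (SE 0.28, adjusted p = 1.25e-06), rest on those low values. So does the interaction of strain and culture, 2.14 (SE 0.51, adjusted p = 0.021). It was the only one called among the 15 probe sets, where 6.80% of all probe sets were called (3.98% larger and 2.82% smaller in NOD). NOD PBS replicate 3 was the highest of its group for both Csf2 and Csf3. The deviations of the 2 genes from their group means correlated at r = 0.761 over the 15 cultured arrays, which share pools and arrays.

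**Figure D2:**
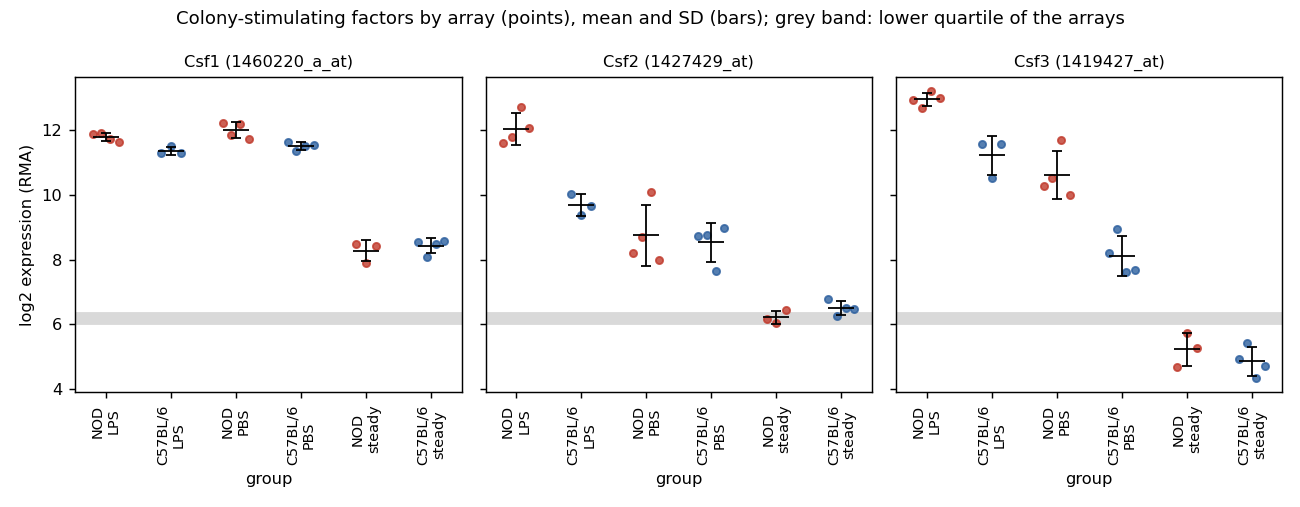
Log2 expression (y axis) of Csf1, Csf2 and Csf3, each by its brightest probe set, in the 6 groups (x axis), NOD in red and C57BL/6 in blue. Points are arrays, bars are the mean and SD, and the grey band spans the lower quartiles of the arrays. Csf2 and Csf3 step up with LPS, and Csf1 is high in all cultured groups.

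Csf1, which encodes M-CSF, rose with culture and was not called with LPS. Its brightest probe set (1460220_a_at) averaged 11.78 ± 0.13 in NOD and 11.35 ± 0.12 in C57BL/6 cells with LPS (SD, n = 4 and 3). It averaged 11.99 ± 0.25 and 11.50 ± 0.12 with PBS (n = 4 each), and 8.28 ± 0.32 and 8.43 ± 0.23 at steady state (n = 3 and 4), NOD first in each pair. All 4 probe sets were called higher after PBS culture, by 2.24 to 3.71 on the log2 scale in NOD and by 2.13 to 3.12 in C57BL/6. The brightest rose 13.1-fold in NOD (SE 0.18, adjusted p = 1.12e-08) and 8.41-fold in C57BL/6 (SE 0.13, adjusted p = 3.11e-09), SEs being on the log2 scale.

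With LPS no Csf1 probe set was called, at -0.14 to -0.38 in NOD and -0.13 to -0.23 in C57BL/6. The lowest of these, 1448914_a_at in NOD (95% interval -0.64 to -0.11, adjusted p = 0.157), had groups that did not overlap, as had 8.1% of all probe sets. This probe set was called without the dimmer 50% of probe sets (adjusted p = 0.0968) and in 1 fit of all 22 arrays (adjusted p = 0.0413). It was lower with LPS in all 7 pairs, by 0.0147 to 0.623, as was 1425155_x_at. NOD cells held more Csf1 than C57BL/6 cells in culture on every probe set. With PBS 2 of the 4 were called, at 0.49 (adjusted p = 0.0586) for 1460220_a_at and 0.48 (adjusted p = 0.0263) for 1448914_a_at. With LPS 1460220_a_at alone was called, at 0.42 (adjusted p = 0.0741), and it was not called with pools paired (0.39, adjusted p = 0.128) or without NOD LPS replicate 1, 2 or 3 or C57BL/6 LPS replicate 2 or 4 (adjusted p up to 0.184). At steady state the 4 strain differences ranged from -0.15 to 0.18 and none was called. The call of 1460220_a_at in PBS culture was lost without NOD PBS replicate 1 or 3 or C57BL/6 PBS replicate 2 or 3 (adjusted p up to 0.164), whereas that of 1448914_a_at was kept on leaving out any 1 array.

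Csf1r, the receptor of M-CSF, fell in culture while its ligand rose. The brightest probe set (1419872_at) averaged 13.02 ± 0.13 in NOD and 13.03 ± 0.16 in C57BL/6 with LPS (SD, n = 4 and 3). Its level was 13.94, 13.32, 13.45 and 13.65 in NOD PBS arrays and 13.61, 13.26, 13.57 and 13.41 in C57BL/6 PBS arrays. It was 14.82, 14.63 and 14.78 in NOD and 14.88, 14.78, 14.71 and 14.84 in C57BL/6 at steady state, above all cultured arrays. Its mean percentile among the probe sets of an array was 99.985 in NOD and 99.991 in C57BL/6 cells at steady state.

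The 3 Csf1r probe sets fell in PBS culture by 1.16, 1.90 and 2.24 on the log2 scale in NOD, and by 1.34, 2.14 and 2.23 in C57BL/6, all called. With LPS they lay lower again. In NOD 1419872_at fell by 0.57 (SE 0.14, adjusted p = 0.0673) and 1419873_s_at by 0.70 (SE 0.18, adjusted p = 0.0781). The third, 1423593_a_at, was at -0.74 (SE 0.20, adjusted p = 0.104) and was not called, but was called with pools paired (adjusted p = 0.0137). In C57BL/6 cells the differences were -0.43, -0.55 and -0.58, and none was called (adjusted p = 0.222 to 0.258). Their groups did not overlap, which held for 10.8% of all probe sets. Each of the 3 probe sets was lower with LPS in all 7 pairs. Both NOD calls were lost without NOD LPS replicate 2, 3 or 4 or NOD PBS replicate 1 or 4 (adjusted p up to 0.196). The strain by LPS interactions were -0.14 to -0.16 and not called, and no strain difference was called in any condition.

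Other macrophage genes are given beside Csf1r. Of 6 measured macrophage and monocyte markers 3 fell and 2 rose in PBS culture in NOD, and 4 fell and 1 rose in C57BL/6, with medians of -0.59 and -0.80. In these comparisons 67.1% and 72.7% of all probe sets were called, so the counts by themselves say little. Mertk fell by 1.38 in NOD and by 1.24 in C57BL/6, and Fcgr1 rose by 1.30 and 1.05. Cd14 averaged 13.28 at steady state and 14.02 with PBS in NOD, but 13.19 and 12.36 in C57BL/6. Of the 6 markers 3 fell with LPS in NOD (C1qa by 0.88, Mertk by 0.70 and C1qb by 0.42). In C57BL/6 Mertk fell by 0.89 and C1qa by 0.87, and Cd14 rose by 0.94. Of all probe sets LPS called 2.08% lower in NOD, and 0.762% lower and 0.715% higher in C57BL/6. The mean level of the 6 markers was 12.3 to 12.4 with LPS and 12.5 to 12.7 with PBS in NOD, and 12.2 to 12.4 and 12.4 to 12.6 in C57BL/6. At steady state it was 12.9 to 13.0 in both strains. The part of cell composition in the fall of Csf1r was not tested.

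The GM-CSF receptor α chain, Csf2ra, gave 2 probe sets that did not move alike. The brightest, 1420703_at, averaged 12.37 ± 0.18 in NOD and 12.58 ± 0.04 in C57BL/6 with LPS (SD, n = 4 and 3). It averaged 12.59 ± 0.12 and 12.75 ± 0.10 with PBS (n = 4 each), and 12.90 ± 0.07 and 12.97 ± 0.06 at steady state (n = 3 and 4), NOD first in each pair. It fell slightly in PBS culture, by 0.31 in NOD (adjusted p = 0.0376) and by 0.23 in C57BL/6 (adjusted p = 0.0594). The NOD call was lost without NOD steady state replicate 6 (adjusted p = 0.133), and the C57BL/6 call without PBS replicate 1 or 2 or steady state replicate 1, 4 or 5 (adjusted p up to 0.15). Averaged over both probe sets, the NOD difference was 0.0951 and not called. The LPS differences, -0.22 in NOD and -0.17 in C57BL/6, were not called.

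The dimmer Csf2ra probe set, 1420704_at, carried a strain difference at steady state. It measured 9.88, 10.15 and 10.28 in NOD and 10.75, 10.84, 11.13 and 11.22 in C57BL/6. The groups did not overlap, as for 23% of all probe sets, and NOD was 1.84-fold lower (log2 difference -0.88, SE 0.14, adjusted p = 0.00254). Of the 15 probe sets, 1 was called higher and 1 lower in NOD at steady state, where 15% of all probe sets were called (7.09% higher and 7.94% lower). The share of member probe sets called, 13.3%, was no larger than that background. On 1420703_at the strain difference was -0.07 (95% interval -0.27 to 0.14). Probe sets of a gene cover different stretches of its transcripts, and strain differences in the probed sequence were not tested.

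In LPS culture 1420704_at was again lower in NOD (log2 difference -0.51, SE 0.16, adjusted p = 0.0961), with 10.43, 10.12, 10.79 and 10.47 in NOD and 10.80, 11.05 and 11.03 in C57BL/6. This call was lost with median centring (adjusted p = 0.11) and without any 1 of the C57BL/6 LPS arrays or NOD LPS replicate 1, 2 or 4 (adjusted p up to 0.254). In PBS culture the difference was -0.29 and not called. After PBS culture the probe set was 0.50 higher in NOD (SE 0.16, adjusted p = 0.0193) and at -0.09 in C57BL/6 (not called). The interaction of strain and culture, 0.59, was not called (adjusted p = 0.154).

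**Figure D3:**
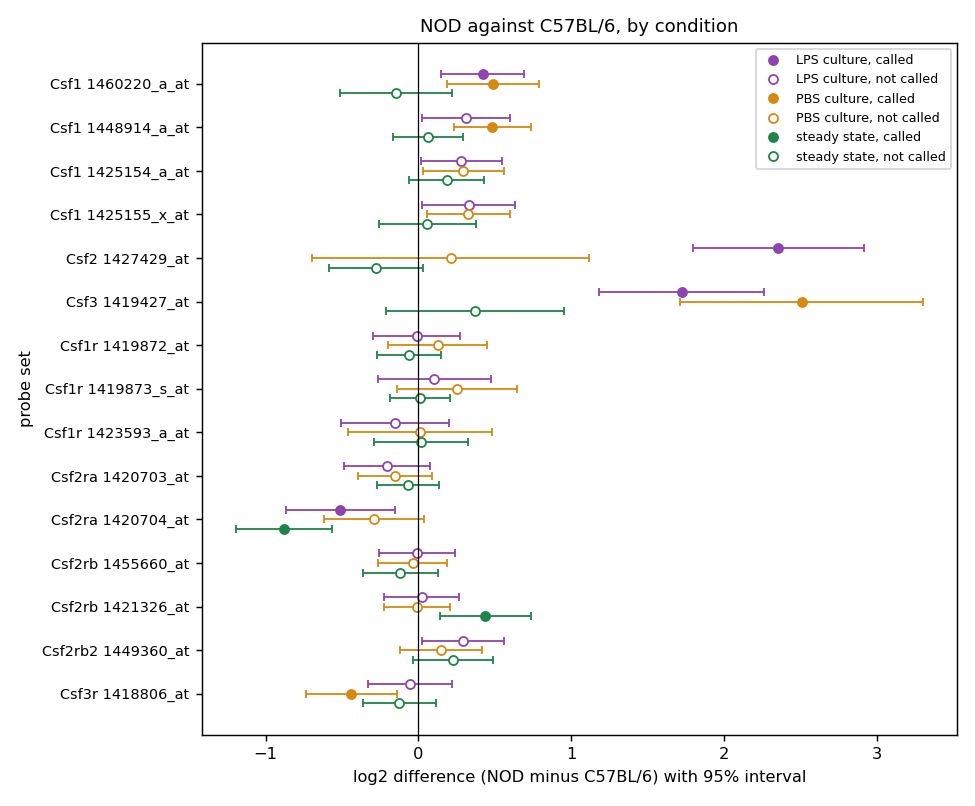
Log2 difference between NOD and C57BL/6 cells (x axis) for each probe set (y axis), in LPS culture (purple), PBS culture (orange) and steady state (green), from top to bottom in each row. Bars are 95% intervals and filled points were called. Csf2 differs in LPS culture alone among the called points (2.36), Csf3 in both kinds of culture (2.51 with PBS and 1.72 with LPS), and receptor differences stay within 1 log2 unit of 0.

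The β chains rose together in culture and did not respond to LPS. Csf2rb (1455660_at) averaged 12.68 ± 0.11 in NOD and 12.69 ± 0.02 in C57BL/6 with LPS (SD, n = 4 and 3), 12.65 ± 0.09 and 12.69 ± 0.05 with PBS (n = 4 each), and 11.80 ± 0.17 and 11.92 ± 0.10 at steady state (n = 3 and 4), NOD first in each pair. The rise in PBS culture was 1.8-fold in NOD (log2 difference 0.85, SE 0.12, adjusted p = 0.000123) and 1.71-fold in C57BL/6 (0.77, SE 0.10, adjusted p = 2.87e-05). On 1421326_at the rises were 1.18 and 1.62. Csf2rb2 (1449360_at), the IL-3 β chain, rose 3.11-fold in NOD (log2 difference 1.64, SE 0.13, adjusted p = 8.59e-07) and 3.29-fold in C57BL/6 (1.72, SE 0.12, adjusted p = 1.55e-07).

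LPS left the 3 β chain probe sets between -0.05 and 0.03 in NOD and between -0.19 and 0.00 in C57BL/6. The 95% intervals lay within -0.30 and 0.25 in NOD and within -0.48 and 0.24 in C57BL/6, so changes beyond these bounds were not seen. At steady state 1421326_at was higher in NOD (11.24, 11.34 and 11.39) than in C57BL/6 (10.84, 11.02, 11.13 and 10.56), by 0.44 on the log2 scale (SE 0.13, adjusted p = 0.0677). That call was lost without NOD replicate 4 or 6 or C57BL/6 replicate 1 or 6 (adjusted p up to 0.194), and the other Csf2rb probe set was at -0.12 (95% interval -0.36 to 0.13). Csf2rb2 in LPS culture measured 12.89, 12.61, 12.56 and 12.62 in NOD and 12.34, 12.33 and 12.46 in C57BL/6, at a difference of 0.29 that was not called (adjusted p = 0.222). These groups did not overlap, which held for 17.6% of all probe sets.

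Csf3r (1418806_at), the G-CSF receptor, rose in culture and was the only receptor gene called higher with LPS, in NOD cells. It measured 11.72, 11.79, 11.87 and 11.89 in NOD LPS arrays and 11.94, 11.67 and 12.00 in C57BL/6 LPS arrays. With PBS it measured 11.08, 11.09, 11.38 and 11.31 in NOD and 11.68, 11.81, 11.34 and 11.79 in C57BL/6. At steady state it measured 9.33, 9.58 and 9.44 in NOD and 9.77, 9.58, 9.47 and 9.48 in C57BL/6. NOD LPS arrays all lay above NOD PBS arrays, and the LPS and PBS arrays of C57BL/6 overlapped.

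LPS raised Csf3r 1.52-fold in NOD cells (log2 difference 0.60, SE 0.11, adjusted p = 0.0158), higher in each of the 4 pairs (0.481 to 0.702). In C57BL/6 the difference was 0.22 (95% interval -0.13 to 0.56, not called), also positive in each of the 3 pairs. The strain difference of the response, 0.39 (95% interval 0.00 to 0.77), was not called (adjusted p = 1). After PBS culture Csf3r was 3.39-fold higher in NOD (log2 difference 1.76, SE 0.13, adjusted p = 3.94e-07) and 4.22-fold higher in C57BL/6 (2.08, SE 0.13, adjusted p = 6.33e-08). In PBS culture NOD cells held less than C57BL/6 cells (log2 difference -0.44, SE 0.14, adjusted p = 0.0847), a call lost without NOD PBS replicate 1, 2 or 4 or C57BL/6 PBS replicate 1, 2 or 4 (adjusted p up to 0.2). Of the 15 probe sets 3 (Csf3 and a pair for Csf1) were called higher and 1 lower in NOD with PBS, where 9.87% of all probe sets were called (4.78% higher and 5.09% lower). In LPS culture the difference was -0.05 (95% interval -0.33 to 0.22), and 3 of the 15 probe sets were called higher and 1 lower, where 9.91% of all probe sets were called (5.03% higher and 4.88% lower).

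Csf3r is also a gene of neutrophils, and some neutrophil markers differed between the strains. In PBS culture 3 of 6 rose and 1 fell in NOD, and 4 of 6 rose in C57BL/6, with medians of 0.36 and 1.03. In these comparisons 67.1% and 72.7% of all probe sets were called, so the counts by themselves say little. Mmp8 rose by 1.58 in NOD and 2.73 in C57BL/6, whereas S100a9 fell by 2.03 in NOD. At steady state 1 was higher in NOD (S100a9 by 0.59) and 2 were lower (Ngp by 0.79 and Ltf by 0.43). There 7.09% of all probe sets were called higher and 7.94% lower. Their mean level over 6 genes was 8.05 to 9.12 in NOD and 9.19 to 10.4 in C57BL/6 with PBS, 8.52 to 8.93 in NOD and 10.1 to 10.7 in C57BL/6 with LPS, and 8.14 to 8.45 in NOD and 8.35 to 8.66 in C57BL/6 at steady state. With PBS 3 of 6 were lower in NOD (Ngp by 1.70, Mmp8 by 1.20 and Camp by 1.16 on the log2 scale). With LPS 5 were lower, led by S100a9 (-4.22) and Ngp (-2.87), and S100a8 was higher (0.87). Of all probe sets 5.09% were called lower with PBS, and 4.88% lower and 5.03% higher with LPS. S100a8 was the only one of the 6 called with LPS within a strain, at 1.83 in NOD and 1.59 in C57BL/6. Within the strains LPS called 3.76% and 1.48% of all probe sets. Their part in the Csf3r values was not tested.

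**Figure D4:**
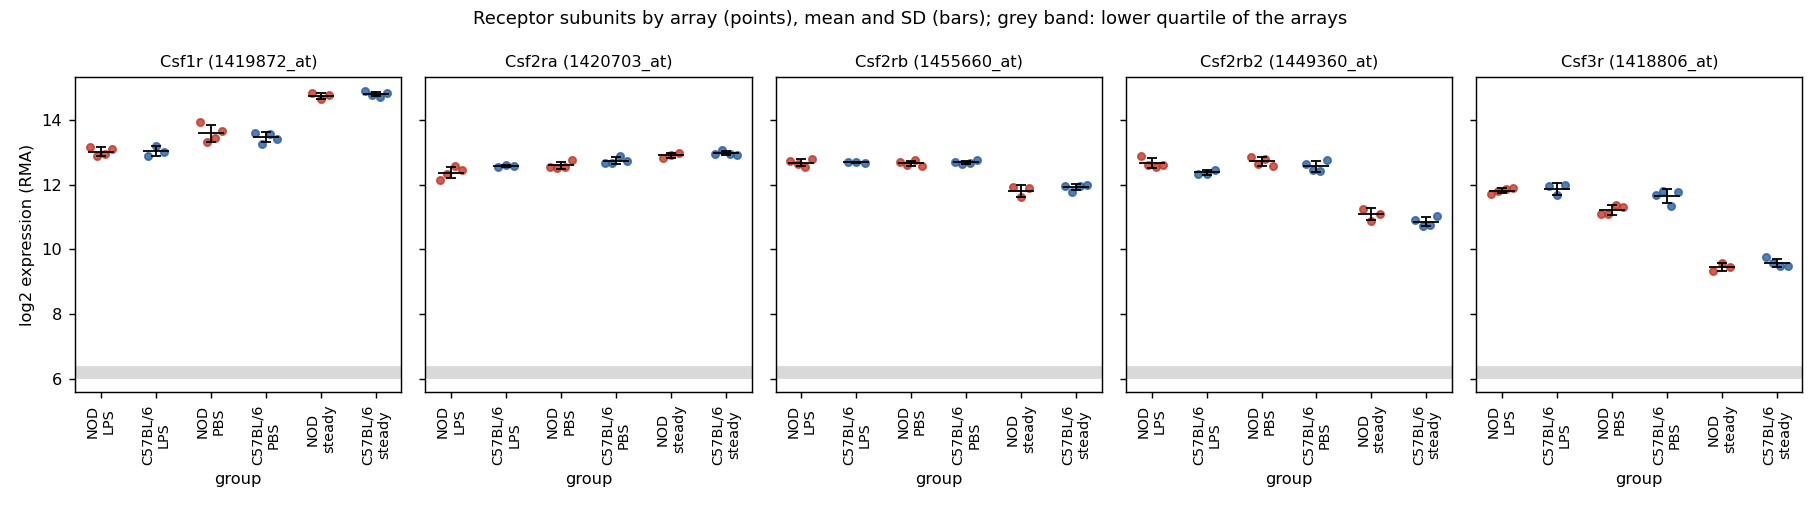
Log2 expression (y axis) of the 5 receptor genes, each by its brightest probe set, in the 6 groups (x axis), NOD in red and C57BL/6 in blue. Points are arrays, bars are the mean and SD, and the grey band spans the lower quartiles of the arrays. Csf1r is highest at steady state, and Csf2rb, Csf2rb2 and Csf3r are lowest there.

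**Figure D5:**
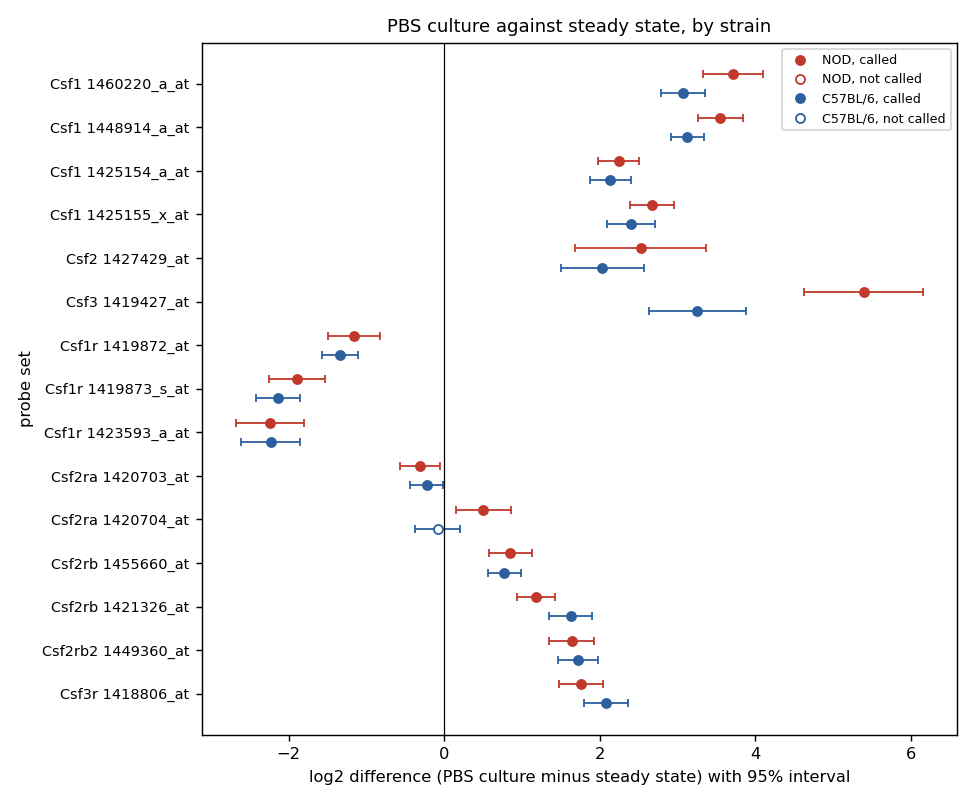
Log2 difference between PBS culture and steady state (x axis) for each probe set (y axis), NOD in red above C57BL/6 in blue. Bars are 95% intervals and filled points were called. Ligands and β chains lie right of 0 and Csf1r left of 0 in both strains, and Csf3, whose steady state values lie below the lower quartile of every array, has fitted differences of 5.39 in NOD and 3.25 in C57BL/6.

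The genes around the receptors were counted by list, and each count is to be read against the share of all probe sets called in the same comparison. Among 15 measured signalling genes 1 rose and 2 fell with LPS in NOD, and none was called in C57BL/6, where 3.76% and 1.48% of all probe sets were called. Stat5a, a transcription factor downstream of GM-CSF, rose by 0.85 (SE 0.16, adjusted p = 0.0184) in NOD. In PBS culture 6 rose and 6 fell in NOD, and 6 rose and 5 fell in C57BL/6, near the 67.1% and 72.7% of all probe sets. Jak2, the kinase bound to the β chain, rose by 1.5 in NOD and 1.18 in C57BL/6, and Stat3, which acts below G-CSF, by 1.35 and 1.44. Dok2, an adaptor that restrains kinase signalling, fell by 2.70 in NOD and by 2.96 in C57BL/6.

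Of 12 inhibitors of cytokine signalling 4 rose and 1 fell with LPS in NOD, and 2 rose in C57BL/6, with list medians of 0.19 and 0.07, where 3.76% and 1.48% of all probe sets were called. Cish, a STAT5-induced inhibitor, rose by 1.47 in NOD (SE 0.21, adjusted p = 0.00517) and by 0.87 in C57BL/6 (SE 0.18, adjusted p = 0.0744, lost under 7 of 13 alternatives). Socs3, the inhibitor of the G-CSF receptor, rose by 0.46 in NOD (adjusted p = 0.078) and by 0.85 in C57BL/6 (adjusted p = 0.0713), and both calls were lost under at least 6 alternatives. In PBS culture 7 of 12 rose in each strain, where 37.8% of all probe sets were called higher in NOD and 42.1% in C57BL/6. Another 4 fell in NOD and 3 in C57BL/6, where 29.3% and 30.5% were called lower. Those that rose included Usp18 (4.78 in NOD and 3.53 in C57BL/6), a brake on interferon signalling, Socs1 (2.11 and 2.77) and Socs2 (2.48 and 2.57). Socs3 was also higher in NOD than in C57BL/6 with PBS, by 0.70 (SE 0.16, adjusted p = 0.0264). The other strain calls of this list were lower in NOD. With LPS these were Ptpn6 (-0.68) and Cblb (-0.51), where 4.88% of all probe sets were called lower. At steady state they were Usp18 (-1.19) and Cish (-0.37, lost under 9 of 13 alternatives), where 7.94% were called lower.

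Among 14 genes known to respond to these factors, 3 were called higher with LPS in NOD and none in C57BL/6, where 1.68% and 0.715% of all probe sets were called higher. The list medians went the other way, at -0.11 in NOD and 0.28 in C57BL/6. Ccl17 and Ccl22, chemokines that GM-CSF induces in DCs, rose by 1.02 (SE 0.14, adjusted p = 0.00504) and 0.84 (SE 0.16, adjusted p = 0.0192) in NOD. None of the 14 was called for the interaction of strain and LPS. Osm, which encodes oncostatin M, was higher in NOD than in C57BL/6 by 1.07 with LPS and 0.72 with PBS. Its call with LPS in NOD (0.61, adjusted p = 0.0941 by limma) was lost under 9 of 14 alternatives. Between strains 2 of the 14 genes were higher and 3 lower in NOD with LPS, and 3 higher with PBS. At steady state 5 were lower and none higher. Of all probe sets 5.03% were called higher and 4.88% lower with LPS, 4.78% higher with PBS, and 7.94% lower at steady state. In PBS culture 8 rose and 5 fell in NOD, and 7 rose and 5 fell in C57BL/6, where 67.1% and 72.7% of all probe sets were called. The lectin genes Cd209a (-4.48 in NOD and -4.88 in C57BL/6) and Mgl2 (-4.43 and -4.18) fell furthest.

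Of 15 regulators of Csf2 and Csf3 transcription or transcript decay, 4 rose and 1 fell with LPS in NOD, and 3 rose and 1 fell in C57BL/6, where 3.76% and 1.48% of all probe sets were called. Nfkbiz, which encodes a nuclear cofactor of NF-kB, rose by 0.91 in NOD (SE 0.12, adjusted p = 0.00346) and 1.05 in C57BL/6 (SE 0.13, adjusted p = 0.0183). Cebpd rose by 1.01 and 1.15, and Zc3h12a, the gene of an RNase that degrades cytokine transcripts, by 1.11 and 1.08. Zfp36l2, which encodes a protein binding AU-rich elements, fell by 0.88 and by 0.86, lost under 5 and 4 alternatives. It was also lower in NOD than in C57BL/6, at -0.82 with LPS and -0.80 with PBS. Zc3h12a was higher in NOD with LPS, by 0.52 (adjusted p = 0.025 by limma). Of the 15 regulators 2 were higher and 2 lower in NOD with LPS, and 3 higher and 2 lower with PBS. Of all probe sets 5.03% were called higher and 4.88% lower with LPS, and 4.78% and 5.09% with PBS. In PBS culture the NF-kB subunit gene Nfkb2 rose by 2.04 in NOD and 1.63 in C57BL/6.

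Among 10 myeloid transcription factors 1 rose and 2 fell with LPS in NOD, and 1 fell in C57BL/6, against the same shares of all probe sets, 3.76% and 1.48%. Cebpa, which drives granulocyte and monocyte development and acts at Csf3r, fell by 1.58 in NOD (SE 0.25, adjusted p = 0.00815) and by 1.30 in C57BL/6 (SE 0.25, adjusted p = 0.0545, lost under 6 of 13 alternatives). Spi1, the gene of PU.1, rose in PBS culture by 1.02 in NOD and 1.5 in C57BL/6. Of 6 related receptors 4 were lower in NOD than in C57BL/6 with PBS and 3 with LPS, where 5.09% and 4.88% of all probe sets were called lower. Kit was lower in NOD by 1.31 on the log2 scale with PBS (SE 0.15, adjusted p = 0.000334) and by 1.40 with LPS (SE 0.17, adjusted p = 0.00115). Flt3, the receptor of a DC growth factor, was lower by 0.74 and by 0.87. At steady state 2 of the 6 were higher in NOD (Il6st at 0.52 and Epor at 0.47) and 2 lower (Il5ra at -0.70 and Flt3 at -0.36). Of all probe sets 7.09% were called higher and 7.94% lower there. Il3ra, the IL-3 α chain, rose in PBS culture by 1.72 in NOD and 1.71 in C57BL/6, beside the rise of both β chains. Of 4 measured related ligands none was called with LPS.

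The genes whose levels ran most like Csf2 over the 22 arrays were Ikzf4 (r = 0.956), Pla1a (0.954), Gad1os (0.952), F3 (0.951) and Urah (0.945). Over the 15 cultured arrays their r with Csf2 was 0.913, 0.902, 0.896, 0.909 and 0.887. Those most like Csf3 were Il1a (r = 0.983), Lcn2 (0.98), Sphk1 (0.978), Malt1 (0.978) and Pla1a (0.976), with 0.989, 0.953, 0.935, 0.941 and 0.938 over the cultured arrays. Pla1a, which encodes a phospholipase, stood in both sets. Il1a encodes interleukin-1α and Lcn2 lipocalin-2. These are descriptions over arrays of 6 groups that share strain and culture.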

How the data were processed

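The authors deposited log2 values per probe set, made from the scanned arrays with RMA in BRB-ArrayTools (versions not given in the sources used here). RMA corrects background, quantile-normalises and summarises probes, so a shift shared by most genes is removed. Of 45101 probe sets, 64 controls were left out. Groups came from the sample titles. Each comparison was fitted in limma 3.58.1 (R 4.3.3), using only the arrays of the groups compared and no filter on dim probe sets, in place of the permutation test of the methods and at their false discovery level. Interactions were fitted over both strains. The fit was tested on simulated data. Groups of 3 or 4 arrays limit the precision, and p-values measure the spread between pools. The PBS arrays of a strain serve in both its LPS and its culture comparison.

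Same-numbered samples deviated together between LPS and PBS culture (r = 0.241 to 0.487 in NOD and 0.259 to 0.423 in C57BL/6) and between strains within a condition (r = 0.109 to 0.433). These comparisons were refitted with the replicate number as a block. PBS culture and steady state shared 2 numbers per strain and were not treated as paired, and the block was fitted there only as an alternative. The study lysed part of the sorted cells directly and cultured the rest, so these samples may share a sort.

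Genes outside the family are represented by the brightest of the probe sets that name them alone, and 16 list entries had none. The text names the members, the 5 genes most correlated with Csf2 and with Csf3, and the called genes of a pathway list with the largest differences. Markers, Il3 and Spi1 were named in addition, after their values were seen. Members and lists were chosen with earlier results of these data known. The array annotation names no build, so coordinates are given only for the RefSeq promoter windows.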

Additional observations from a re-analysis of the deposited data

Results flagged for a closer look

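Of 60 groups of 4 arrays, 1 for each probe set and group of that size, 3 held an array apart from the others, where chance gives about 1 in 20. Csf1 probe set 1448914_a_at measured 10.5 in C57BL/6 PBS replicate 2, below the 10.7 of the other arrays of its group. Csf1 probe set 1425154_a_at measured 10.4 in C57BL/6 PBS replicate 3, against 10 to 10.1 in the others. Csf2ra probe set 1420703_at measured 12.8 in NOD PBS replicate 4, against 12.5 to 12.6 in the others.

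The fitted response of Csf3 to PBS culture was 2.14 larger in NOD than in C57BL/6 on the log2 scale (interaction in limma, adjusted p = 0.021). Both steady state levels in this difference lay below the lower quartile of every array, so its size is not well measured.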

How the results depend on the processing

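Of 46 called differences of single member probe sets, 37 kept their call under every alternative run and 9 lost it under at least 1. A further 44 uncalled differences smaller than their SE were given no direction. At an adjusted p under 0.05, 1 member probe set was called at steady state, 3 with LPS in NOD, 2 between strains with PBS and 2 with LPS. With LPS in C57BL/6, 2 were called without the dimmer 50% of probe sets, 3 in 1 fit of all 22 arrays, 4 with an intensity trend and 2 with the replicate block. For the interaction of strain and culture these counts were 2, 3 and 2, in the first 3 settings. Csf2 with LPS in C57BL/6 was called at 1.15 without the dimmer probe sets (adjusted p = 0.0876), at 1.15 with the trend (0.0885) and at 1.21 with the replicate block (0.0749). The replicate block also added the call of Csf1r 1423593_a_at with LPS in NOD and removed that of Csf1 1460220_a_at between strains with LPS and those of Csf2ra 1420703_at in culture (adjusted p = 0.362 in NOD and 0.181 in C57BL/6), and changed no other call of a single member probe set. In culture the samples shared only a number (r of same-numbered samples 0.0996 to 0.277 in NOD and -0.0328 to 0.177 in C57BL/6). Averaging the probe sets of a gene reversed Csf2rb 1455660_at at steady state (0.16) and Csf2ra 1420703_at in NOD culture (0.0951), since the other probe set of each moved the other way.

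Leaving out 1 array, the member probe sets called ranged from 1 to 2 at steady state, 3 to 6 with LPS in NOD, 1 to 2 with LPS in C57BL/6, 2 to 5 between strains with PBS, 2 to 3 between strains with LPS, 0 to 1 for strain by LPS and 1 to 2 for strain by culture. Csf2 with LPS in C57BL/6 ranged from 0.856 to 1.30, called without C57BL/6 PBS replicate 3 (adjusted p = 0.0991), and its interaction from 1.89 to 2.59. Over the whole array, LPS called 1693 probe sets in NOD, against 2676 in 1 fit of all arrays, 4282 with the replicate block and 1013 at 0.05, and 665 in C57BL/6, against 2030 in 1 fit, 1085 with the trend, 269 at 0.05 and as few as 84 without C57BL/6 PBS replicate 1. Strain called 4447 with PBS, against 6826 with the replicate block, and 4463 with LPS, against 2951 at 0.05. Strain by LPS called 11, against 20 in 1 fit, 18 with the block and 6 without the dimmer probe sets, and strain by culture 3063, against 649 with the block and 2037 at 0.05. Without the dimmer probe sets, which leaves fewer tested, culture called 16740 in NOD and 17935 in C57BL/6, against 30222 and 32735. Of 145 called differences of pathway genes, run under the same alternatives after the data were seen, 94 kept their call throughout. The number of arrays limits what smaller differences can be called.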
